A study of Drosophila melanogaster with 6 samples.

Results

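The Hippo pathway was read through 10 genes, *ft*, *ds*, *ex*, *Mer*, *kibra*, *hpo*, *sav*, *wts*, *mats* and *yki*, in larval eye discs that lack miR-998 and in wild type eye discs. A gene was followed where the platform annotation names it, alone, for a probe set (a group of short oligonucleotides that reads 1 transcript). This gave 10 probe sets for 9 of the 10 genes, 2 of them for *kibra*, among 18769 probe sets and 11982 genes read in all. *ft* has no probe set named for it alone and was not analysed here. The study hybridized RNA of eye discs from wandering larvae of the last instar to 6 Affymetrix arrays, 3 for *w; mir-998[exc222]* homozygotes and 3 for wild type (*w1118*), raised alike on standard medium and both carrying a mutation in *white*. The *mir-998[exc222]* allele comes from 1 imprecise excision of a *P* element, which left a piece of the element inside the *mir-998* hairpin in an intron of *dE2f1*, and the whole animal is mutant. Whether both stocks share a genetic background is not given in the sources used here. Mature miR-998 is not read by these arrays, so the labels rest on the sample records alone.

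The Hippo pathway restrains the growth of imaginal discs. The kinase Hippo, with its scaffold Salvador, activates the kinase Warts, which works with its cofactor Mats to phosphorylate the coactivator Yorkie and keep it out of the nucleus. Expanded, Merlin and Kibra promote this cascade from the apical cell cortex, and the large cadherins Fat and Dachsous feed into it from the cell surface. Unphosphorylated Yorkie drives genes of growth and survival, and also *ex*, *Mer* and *kibra*, which closes a negative feedback loop. Much of this signaling acts through protein phosphorylation, which transcript arrays do not measure.

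Values are log2 expression values that the authors made with the RMA algorithm, so a difference of 1 is a 2-fold change. The array medians were 5.25 to 5.30. Bacterial *trp* control probe sets, which give the level of background signal, stood at 3.63 to 3.72. All 10 probe sets of the Hippo genes lay well above that, from 6.06 to 10.96 on any array. All 13 measured eye disc markers were above background too, down to 6.44 for *ro* on 1 array. Wild type replicate 3 stood apart with the lowest mean level of these markers, 9.33, against 10.05 to 10.16 on the mutant arrays and 9.86 and 10.11 on the other wild type arrays. On the brightest probe set of each gene all 13 had log2 fold changes above 0, from 0.14 to 0.59 with a median of 0.34. Only *lz* had mutant values all above wild type (9.37% of all genes) and an unadjusted p under 0.05 (13.9% of all genes). On these probe sets none of the 13 was called by limma (smallest adjusted p = 0.169). Of the dimmer *toy* probe sets, 1 stood at 0.46 (standard error 0.08, limma adjusted p = 0.054), with mutant values all above wild type. Another stood at -0.05 (standard error 0.22). The mean level of 7 salivary gland markers ran from 9.30 to 12.73 on mutant arrays and from 8.82 to 11.97 on wild type arrays, and that of 4 fat body markers from 5.86 to 9.16 on mutant arrays and from 6.30 to 9.54 on wild type arrays. Neither range separated the genotypes. The mean level of 8 hemocyte markers did, at 8.29 to 8.54 on mutant arrays and 7.14 to 7.86 on wild type arrays. On the brightest probe set of each gene all 8 had log2 fold changes above 0. Of these, 5 had mutant values all above wild type (9.37% of all genes) and 4 an unadjusted p under 0.05 (13.9% of all genes). Limma called 1 of the 8, the phagocytosis receptor gene *NimC1*, where 1.93% of all genes were called. The means of 5 muscle markers barely overlapped, at 10.45 to 10.91 on mutant arrays and 10.88 to 11.32 on wild type arrays. All 5 had log2 fold changes below 0, 3 of them with mutant values all below wild type (8.73% of all genes) and 3 with an unadjusted p under 0.05 (13.9% of all genes), and none was called by limma (smallest adjusted p = 0.0913). The means also overlapped for 5 antennal markers (9.74 to 9.84 on mutant arrays, 9.29 to 9.79 on wild type arrays) and 4 glial and neuronal markers (9.09 to 9.30 on mutant arrays, 8.67 to 9.10 on wild type arrays). The part of these tissues in the results below was not tested unless a value is given.

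None of the 9 Hippo genes was called as differentially expressed between *mir-998* mutant and wild type eye discs. The test was limma over all probe sets, with an adjusted p at or under 0.05 as the threshold, which 1.93% of all genes passed. At an unadjusted p under 0.05 the count was also 0 of 9, against 13.9% of all genes. This second count depended on the processing, as 8 of the 17 alternative fits had 1 or 2 of the 9 genes under 0.05 unadjusted, most often *hpo* or *ds*, and none had a called one. Log2 fold changes of the 9 genes ran from -0.29 for *Mer* to 0.25 for *ds*, with 5 above and 4 below 0 and a median of 0.08, and the median over all genes was 0.0033. All 9 were under 0.3 in size, as were 85.8% of all genes. The 95% interval of the change stayed within 0.69 of 0 on the log2 scale for each of the 9, so for none of them did it reach a 2-fold change in either direction. Over all genes 93.4% had an interval within 1 log2 unit of 0. The labels name biological replicates but no separate crosses or dissections, so p-values measure the spread between these arrays, part of which may be technical.

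**Figure D1:**
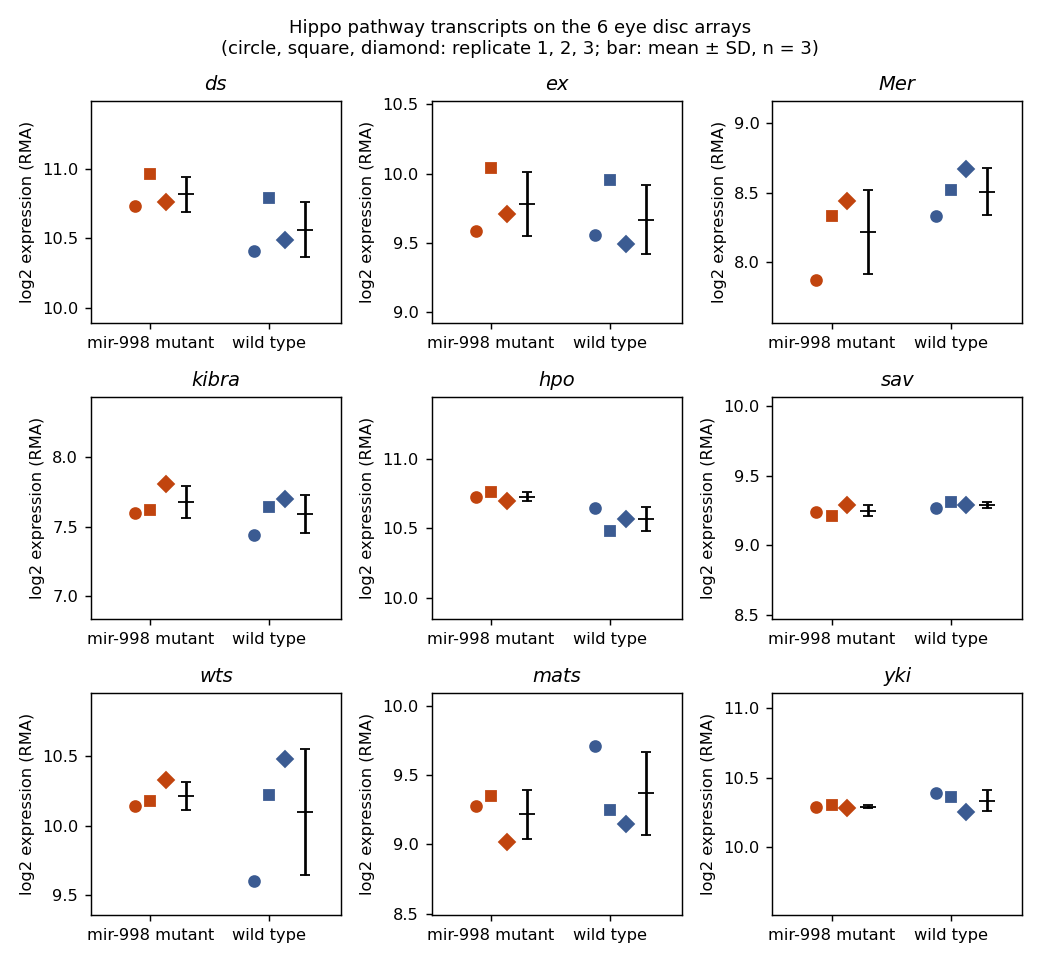
Log2 expression (RMA) of the 9 measured Hippo pathway genes, mutant arrays on the left (orange) and wild type arrays on the right (blue) of each panel. Symbols mark replicates and bars the mean ± SD of 3 arrays, and each panel spans 1.6 log2 units. The 3 mutant values lie above the 3 wild type values only for *hpo*.

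At the cell surface, *ds* encodes Dachsous, the cadherin that binds Fat on neighbouring cells. On the arrays it read 10.73, 10.96 and 10.76 (log2) in the mutant and 10.41, 10.79 and 10.49 in wild type. Wild type replicate 2 lay above 2 of the mutant arrays, so the genotypes overlapped. *ds* had the highest log2 fold change of the 9 genes, 0.25 (standard error 0.12, 95% interval -0.04 to 0.54, limma adjusted p = 0.504). That is a 1.19-fold higher mean in the mutant, with an interval from 0.975-fold to 1.46-fold.

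Of the 3 apical regulators, *ex* encodes Expanded, a FERM domain protein and a standard readout of Yorkie activity. The *ex* log2 values were 9.59, 10.04 and 9.71 in the mutant and 9.56, 9.95 and 9.49 in wild type. The genotypes overlapped nearly fully, and the fold change of 0.11 (standard error 0.16, limma adjusted p = 0.889) was smaller than the spread within either genotype, which was 0.45 between the lowest and highest mutant arrays and 0.46 between those of wild type. Without mutant replicate 2 its direction turned, to -0.017.

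*Mer* encodes Merlin, the fly homolog of the tumour suppressor NF2. *Mer* read at log2 values of 7.87, 8.33 and 8.44 in the mutant and 8.33, 8.52 and 8.67 in wild type. Mutant replicate 1 was the lowest of all arrays, while the other 2 mutant arrays lay within or at the edge of the wild type values. The log2 fold change of -0.29 (standard error 0.17, 95% interval -0.69 to 0.11, limma adjusted p = 0.608) was the lowest of the 9 genes and shrank to -0.12 without mutant replicate 1.

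*kibra* encodes a WW domain protein that binds Merlin and Expanded. Its brighter probe set had log2 values of 7.60, 7.62 and 7.81 in the mutant and 7.44, 7.64 and 7.70 in wild type, a fold change of 0.08 (standard error 0.10, limma adjusted p = 0.854). Its dimmer probe set had 6.06, 6.65 and 6.54 in the mutant and 6.30, 6.54 and 6.90 in wild type, a fold change of -0.16 (standard error 0.21, limma adjusted p = 0.866). Both probe sets overlapped between the genotypes and their fold changes had opposite signs. The 95% intervals, from -0.15 to 0.32 for the brighter and from -0.66 to 0.33 for the dimmer probe set, both held 0, so no direction could be read for *kibra*.

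In the core cassette *hpo* came closest to the threshold. It encodes the kinase at the head of the cascade, the fly counterpart of mammalian MST1 and MST2. Its log2 values were 10.73, 10.76 and 10.70 in the mutant and 10.65, 10.48 and 10.57 in wild type, so the mutant arrays lay above the wild type arrays (two-sided p = 0.1 by an exact permutation test, which cannot go lower with 3 arrays per genotype). Of the 9 genes *hpo* alone had mutant values that did not overlap and were higher, a pattern found for 9.37% of all genes. None of the 9 had mutant values all below wild type, found for 8.73% of all genes. The gap between the lowest mutant array and the highest wild type array was narrow and the log2 fold change small, 0.16 (standard error 0.07, 95% interval -0.0011 to 0.33), and it did not pass limma (unadjusted p = 0.0512, adjusted p = 0.426). In linear terms *hpo* averaged 1.12-fold higher in the mutant, with an upper bound of 1.26-fold. With each array left out in turn its fold change was 0.12 to 0.20. As the groups did not overlap, leaving out 1 array could not have turned its sign. With the mean of the hemocyte markers, which differs between the genotypes, as a covariate, the fold change came to 0.02. Its standard error in that fit was 0.14, against 0.07 without the covariate, and the part of hemocytes in the *hpo* value was not tested.

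*sav* encodes the WW domain scaffold that joins Hippo to Warts, and it was the steadiest of the cassette in wild type. The 3 mutant arrays gave log2 values of 9.24, 9.21 and 9.29, and the 3 wild type arrays 9.27, 9.31 and 9.29. They spanned 0.08 between mutant arrays and 0.04 between wild type arrays. The fold change was -0.04 (standard error 0.06, limma adjusted p = 0.88), with a 95% interval from -0.18 to 0.10, the narrowest of the 9 genes.

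*wts* encodes the Warts kinase, the counterpart of mammalian LATS1 and LATS2. It had log2 values of 10.14, 10.18 and 10.33 in the mutant and 9.60, 10.22 and 10.48 in wild type. Wild type replicate 1 lay 0.54 or more below all 5 other arrays, and the wild type arrays spanned 0.88, against 0.19 for the mutant arrays. The log2 fold change of 0.12 had the largest standard error of the 9 genes, 0.22 (95% interval -0.41 to 0.64, limma adjusted p = 0.917). It turned to -0.13 (standard error 0.11) without wild type replicate 1.

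*mats* encodes the Mob family cofactor of Warts. The *mats* log2 values were 9.28, 9.35 and 9.02 in the mutant and 9.71, 9.25 and 9.15 in wild type. Here wild type replicate 1 was the highest of the 6 arrays, where for *wts* it was the lowest. The log2 fold change was -0.15 (standard error 0.17, limma adjusted p = 0.836), and it came to 0.017 without that array.

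*yki*, the output of the cascade, encodes the coactivator that is the fly counterpart of YAP. Its log2 values were 10.29, 10.30 and 10.28 in the mutant and 10.39, 10.36 and 10.25 in wild type. The mutant arrays spanned only 0.02 and lay inside the wild type range. The log2 fold change was -0.04 (standard error 0.06, 95% interval -0.20 to 0.11, limma adjusted p = 0.892), so a mutant mean under 0.872-fold or over 1.08-fold of wild type lay outside the interval.

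**Figure D2:**
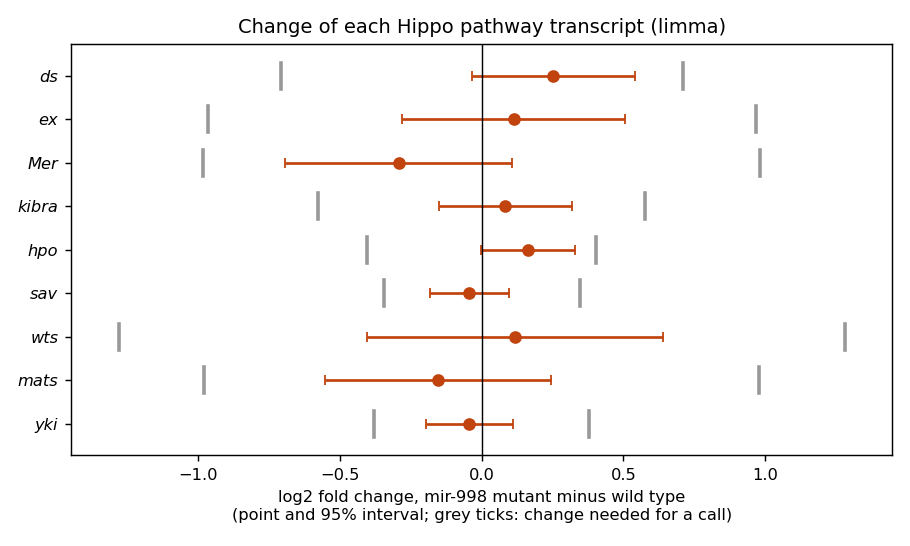
Log2 fold change, *mir-998* mutant minus wild type, of each measured Hippo gene with its 95% interval from limma (3 arrays per genotype). Grey ticks mark the change that the gene would have needed, at its own standard error, to reach the adjusted threshold; no point lies past its ticks.

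How small an estimated change would have been called on these arrays differed between the genes. The largest unadjusted p among called probe sets was 0.000798. With each gene's own standard error, a call at that p needed a log2 fold change of 0.35 for *sav*, 0.38 for *yki*, 0.40 for *hpo* and 0.58 for *kibra*. It needed 0.71 for *ds*, 0.97 for *ex*, 0.98 for *Mer* and *mats*, and 1.28 for *wts*. For *sav*, *yki* and *hpo* an estimated change well under 2-fold would therefore have been called. For *wts*, at the standard error of all 6 arrays, an estimated 2-fold change would not have been. These limits apply to the estimate, and a true change of the same size could still be missed. The limit for *wts* rested on wild type replicate 1, without which its standard error was 0.11 in place of 0.22.

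The spread between arrays of one genotype was wider in wild type for 7 of the 9 genes, all but *sav* and *Mer*, and wild type was the wider genotype for 71.1% of all genes. Some of this spread had the same order in both genotypes. When the arrays of each genotype were lined up by their fat body marker level, which was highest on replicate 1 of both genotypes (9.16 in the mutant, 9.54 in wild type) and lowest on replicate 3 of both (5.86 in the mutant, 6.30 in wild type), *Mer*, *wts* and *kibra* each lay in the reverse order in both genotypes. For *kibra* this was its brighter probe set, and the dimmer one did not follow the order in the mutant, where replicate 2 was highest. The order held for 3 of 9 Hippo genes and for 5.87% of all genes, and no Hippo gene followed the fat body markers in the same order in both genotypes, as 8.63% of all genes did. With the mean of the fat body markers as a covariate, the log2 fold change of *Mer* was -0.36 (standard error 0.07, 95% interval -0.54 to -0.18), which did not pass limma (unadjusted p = 0.00307, adjusted p = 0.0916). That of *wts* came to 0.04 (standard error 0.15) and that of *kibra* to 0.05 (standard error 0.07). The covariate was added after the data were seen, and these 3 genes were singled out by their order against the same markers. Smaller standard errors follow from that choice, so the interval and p-values of *Mer* in this fit are a description and no test. *ds* and *ex* shared another order, with replicate 2 the highest array in both genotypes, as for 5.78% of all genes. In *ds* replicate 2 stood 0.14 above the mean of the mutant arrays and 0.23 above that of the wild type arrays, and in *ex* 0.26 above the mutant mean and 0.28 above the wild type mean. These orders were noticed in the values and were not tested. The fat body order is also the order of the replicate numbers in both genotypes, so marker level and replicate number cannot be told apart. Fewer cells of a type and less RNA per cell cannot be told apart in such bulk samples.

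**Figure D3:**
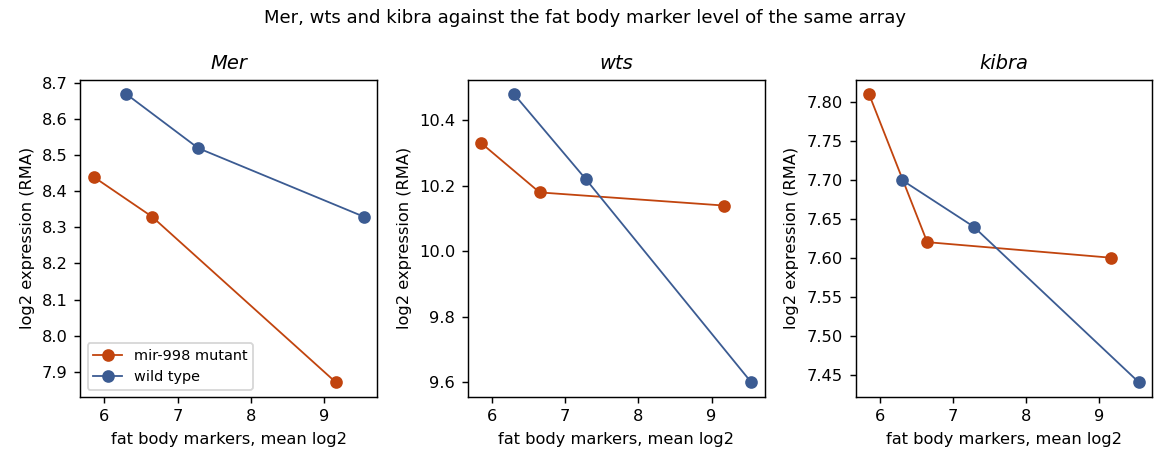
Log2 expression of *Mer*, *wts* and *kibra* (brighter probe set) on each array against the mean log2 value of 4 fat body markers on the same array, mutant in orange and wild type in blue, with lines that join the 3 arrays of a genotype. In all 3 panels both lines fall from left to right, and for *Mer* the mutant line lies below the wild type line. Each line runs from replicate 3 on the left to replicate 1 on the right.

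The wider pathway was read from 5 lists with 48 genes, of which 37 were measured. None of the 37 was called by limma, against 1.93% of all genes, and 4 of 37 had an unadjusted p under 0.05, against 13.9% of all genes. In the Fat and Dachsous branch all 6 measured genes had log2 fold changes between -0.15 and 0.22, with a median of 0.12. *Fbxl7*, an F-box protein that acts below Fat, stood at 0.22 (standard error 0.11), *fj*, the Golgi kinase that phosphorylates the Fat and Dachsous cadherin domains, at -0.15 (standard error 0.09), and *dco*, a casein kinase that phosphorylates Fat, at 0.13 (standard error 0.10). *dachs* was not analysed here.

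Among 13 apical and junctional genes the median log2 fold change was 0.07. *aPKC*, the apical polarity kinase, came closest to a call of all 37 genes. For *aPKC* the log2 values were 10.40, 10.57 and 10.57 in the mutant and 10.01, 10.21 and 10.19 in wild type. The mutant arrays all lay above the wild type arrays, as for 9.37% of all genes, and for no other of the 13 on its brightest probe set. The log2 fold change of *aPKC* was 0.38 (standard error 0.09, limma adjusted p = 0.127), while its dimmer probe set stood at 0.12 (standard error 0.10). *Zyx*, the LIM domain protein Zyxin of the Fat branch, stood at -0.19 (standard error 0.10) and *Patj*, a scaffold of the Crumbs complex, at 0.15 (standard error 0.09), neither past the threshold. Of the 6 measured inhibitors of Hippo, mostly subunits of the STRIPAK phosphatase complex, the leading values were 0.17 for *Slmap* (standard error 0.06), 0.14 for *Cka* (standard error 0.08) and 0.20 for *Strip* (standard error 0.12), and the median of the list was 0.09. The mutant arrays all lay above the wild type arrays for 2 of the 6, *Slmap* and *Cka*, and for 9.37% of all genes. *Slmap* did not pass limma (unadjusted p = 0.033, adjusted p = 0.353). *Rassf*, which competes with Salvador for Hippo, stood at 0.04 (standard error 0.06).

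Of 7 measured partners of Yorkie, *Wbp2*, a coactivator that binds its WW domains, had log2 values of 9.43, 9.47 and 9.43 in the mutant and 9.27, 9.13 and 9.02 in wild type. Of the 7, only *Wbp2* had mutant arrays all above the wild type arrays on its brightest probe set, a pattern of 9.37% of all genes. The *Wbp2* fold change of 0.30 (standard error 0.08, limma adjusted p = 0.181) did not pass. *14-3-3zeta*, which binds phosphorylated Yorkie, stood at 0.31 (standard error 0.18) and *mask*, a cofactor with ankyrin repeats, at 0.15 (standard error 0.09), with 0.31 (standard error 0.10) on its other probe set. On that other *mask* probe set the mutant arrays all lay above the wild type arrays (limma adjusted p = 0.285). The list had a median of 0.15. *sd*, the DNA-binding partner of Yorkie, was not analysed here.

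Target genes of Yorkie likewise had no called member among 7 of 14 that were measured. The median log2 fold change was 0.02. The highest by the brightest probe sets was that of *dlp*, a glypican, with log2 values of 10.86, 11.02 and 10.98 in the mutant and 10.43, 10.62 and 10.73 in wild type, and a fold change of 0.36 (standard error 0.10, limma adjusted p = 0.186). On the brightest probe set of each target the genotypes did not overlap for *dlp* and did for the other 6, where 9.37% of all genes had mutant values all higher and 8.73% all lower. *CycE*, the G1/S cyclin, stood at 0.07 (standard error 0.14, limma adjusted p = 0.918), and *vg*, a selector gene of the wing, at 0.12 (standard error 0.16) on the brighter of its probe sets. The dimmer *vg* probe set had log2 values of 5.08, 5.01 and 4.87 in the mutant and 4.44, 4.66 and 4.75 in wild type. These did not overlap, where 9.37% of all genes had mutant values all higher on their brightest probe sets. The fold change was 0.37 (standard error 0.10, limma adjusted p = 0.208). All values of this probe set, and those of the target *upd2* (5.05 to 5.23), lay below the array medians of 5.25 to 5.30. Such low levels limit what these 2 genes can show. With *ex*, *Mer* and *kibra*, the targets that are themselves Hippo regulators, the values were 0.11, -0.29 and 0.08, and all 3 of their 95% intervals held 0. *Diap1*, *Myc*, *wg*, *Ser*, *dally*, *upd3* and *vn* were not analysed here. *CycE* and *Rassf* were named after their values were seen.

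**Figure D4:**
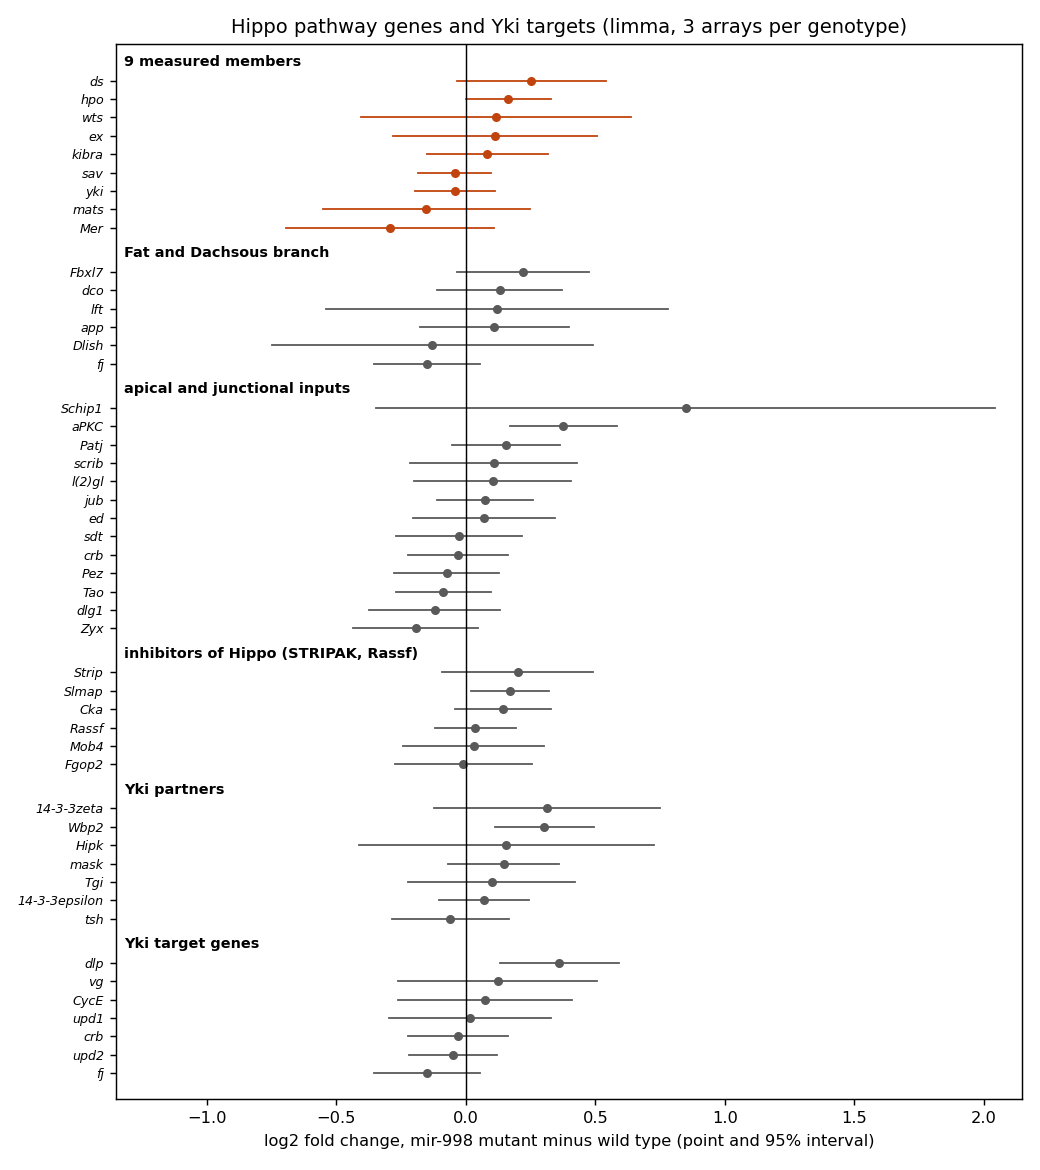
Log2 fold change, *mir-998* mutant minus wild type, with its 95% interval from limma for the 9 measured Hippo genes (orange) and for the other pathway genes and Yorkie targets by list (grey); *fj* and *crb* are on 2 lists. Most points lie within 0.3 of 0, *Schip1* has the widest interval, and no gene passed the adjusted threshold.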

How the data were processed

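RNA of eye discs was hybridized to 6 Affymetrix Drosophila arrays, 3 per genotype, and groups were taken from the sample titles. The values the authors deposited, for 18952 probe sets, are log2 expression from RMA in the affy package (background correction, a common distribution for all arrays, summary of probes). RMA removes shifts shared by all transcripts, and no raw intensity was used here. Without the 183 control probe sets, limma 3.58.1 (lmFit, eBayes; R 4.3.3) was run on 18769, mutant minus wild type, with no covariate and with Benjamini-Hochberg adjustment over all of them. The fit was tested on simulated data. Arrays give no read depth, and their number limits the precision. A platform annotation, with symbols updated through RefSeq, named 1 gene for 13647 probe sets and several for 402, and 4720 are unnamed here. The probe set with the highest mean stood for a gene. The members and lists were chosen with earlier results of these data known. Named were all members, of each pathway list the called genes or the 3 with the smallest p, and genes said to be chosen otherwise; marker lists, planned by named genes, are given by their means instead. Alternatives were another normalization, centring, eBayes with trend, array weights, a filter at a mean of 5, leaving out each array, the replicate number as a block and other probe set rules. Marker covariates were added after the data were seen.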

Additional observations from a re-analysis of the deposited data

How the results depend on the processing

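The count of called Hippo genes was 0 in each of the 17 alternative fits and at an adjusted p of 0.1, and so was that of the 37 other pathway genes in the fits; the smallest adjusted p from limma was 0.0916 for the Hippo genes (*Mer*, fat body covariate) and 0.0647 for the other pathway genes. Directions that turned were those of *wts* (-0.13 to 0.31 with 1 array left out) and *mats* (-0.26 to 0.017), each without wild type replicate 1, of *ex* (-0.017 to 0.26) without mutant replicate 2, and of *kibra* on the mean of its probe sets (-0.04) or its other probe set (-0.16), which differ in sign. With the hemocyte covariate the fold changes reached 0.70 for *ex* (standard error 0.24) and 0.73 for *ds* (standard error 0.15), neither past the threshold. As hemocyte marker level separates the genotypes, its part and that of genotype cannot be told apart in this fit, and the cause was not tested. The 300 probe sets called over the whole array became 477 with array weights, 485 at an adjusted p of 0.1, 191 with the salivary gland covariate, 19 with the hemocyte covariate, whose values separate the genotypes, and 127 to 412 with 1 array left out, with 134, 127 and 136 without mutant replicate 1, 2 or 3 and 179 without wild type replicate 2. Across all probe sets, same-numbered arrays deviated with correlations of 0.19, -0.23 and 0.29, so the replicate numbers gave no uniform pairing. With the number as a block 300 probe sets and 0 Hippo genes were called. Single Hippo genes differed in this. The block lowered the standard error from 0.17 to 0.08 for *Mer*, from 0.16 to 0.07 for *ex* and from 0.12 to 0.07 for *ds*. It also lowered that of *wts*, *mats* and *kibra*, and slightly raised that of *yki*, *hpo* and *sav*. An unadjusted limma p under 0.05 was reached by *hpo* with array medians subtracted, with array weights, without wild type replicate 1 and on the gene mean, by *ds* without wild type replicate 2, by *ds* and *Mer* with the replicate block, by *Mer* with the fat body covariate, and by *ds* and *ex* with the hemocyte covariate. At the standard errors of these 6 arrays a call needed a log2 fold change of 0.35 to 1.28 by gene, and those errors moved with the setting.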

Other observations

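*Schip1*, a gene whose product links Hippo to its activating kinase Tao, had the largest log2 fold change of the 37 other pathway genes, 0.85 (standard error 0.50, limma adjusted p = 0.622), and was named after its values were seen. Its log2 values were 7.68, 7.24 and 7.37 in the mutant and 7.38, 6.99 and 5.37 in wild type, so the genotypes overlapped and wild type replicate 3 was far below the other arrays. Without that array, which also had the lowest eye disc marker level, the fold change was 0.25 (standard error 0.17, limma adjusted p = 0.549).

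Over the 6 arrays, *hpo* was followed most closely by *CG10098* (Pearson r = 0.993), *Erasp* (0.992) and *TTLL15* (0.988), and *ds* by *Usp7* (0.991), *CG10383* (0.990) and *Csp* (0.987). These are the highest values among all genes read, over 6 points that share the genotype contrast, and are given as a description.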
